A study of Mus musculus with 16 samples.

Results

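Passenger strands, named with an asterisk on this array and called stars here, were followed in early hematopoietic cells of the mouse. The array carried 114 mouse stars. The 97 stars described here were every mouse miR whose name ended in an asterisk, without the 13 stars of a large miR cluster on chromosome 12, without 3 others of the repeated miR-297, miR-466, miR-467 and miR-669 families, and without miR-712*. They were 97 of the 577 miRs on the array, of which 567 were mouse miRs. For 86 of the 97 stars the array also had a miR of the same name without the asterisk, called the arm here, and for 11 it had none.

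The study profiled 6 populations of Hematopoietic Stem/Progenitor Cells (HSPCs) sorted from the bone marrow of untreated young adult female C57Bl/6 mice. LT-HSC and ST-HSC are the long-term and short-term repopulating stem cells, MPP are multipotent progenitors, CMP are the common progenitors of the myeloid lineages, and GMP and MEP are the progenitors restricted to granulocytes and monocytes and to megakaryocytes and red cells. Marrow of several mice was pooled for each sample, mature lineage-positive cells were depleted, cells with c-kit were enriched, and the first 3 populations (the HSC subsets) were sorted apart from the last 3 (the myeloid progenitors). Each population had 3 one-colour Agilent miR arrays, except LT-HSC with 1 array, so that 16 arrays on 3 slides were read. CMP, GMP and MEP replicates 1 and 2 shared slide 1, their replicate 3 arrays shared slide 2 with LT-HSC 1 and ST-HSC 1, and slide 3 carried ST-HSC 2 and 3 and all of MPP.

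A miR gene is transcribed as a hairpin, and the duplex cut from its stem has a strand from each side. One strand is usually loaded into an Argonaute protein and guides repression of target mRNAs, while the other, the passenger or star strand, is usually degraded. Names with an asterisk were given to the strand that was cloned less often, and for some hairpins, miR-140 among them, later sequencing found the asterisk strand to be the more frequent strand in some tissues.

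Mature sequences were taken from RefSeq (GRCm38.p6), where 80 of the 97 stars had an entry. The first set below holds the 2 stars named when the group was chosen and those on which the comparisons between populations turn, with bases 2 to 8, the seed that pairs with targets, in capitals and all other bases in lower case.
let-7d*: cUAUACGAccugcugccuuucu
miR-140*: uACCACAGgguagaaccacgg
miR-106b*: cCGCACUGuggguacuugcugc
miR-15b*: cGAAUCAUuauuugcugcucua
miR-21*: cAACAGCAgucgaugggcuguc
miR-130b*: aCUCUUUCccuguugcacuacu
miR-181a-1*: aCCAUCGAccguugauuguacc
miR-30c-1*: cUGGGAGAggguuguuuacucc
miR-135a*: uAUAGGGAuuggagccguggcg
miR-191*: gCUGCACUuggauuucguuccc
No seed occurs more than once in this set. The array's probe annotation (mm9) put miR-140* at chr8:110075194-110075208, let-7d* at chr13:48631393-48631410, miR-106b* at chr5:138606974-138606988, miR-15b* at chr3:68813735-68813756, miR-181a-1* at chr1:139863089-139863106 and miR-30c-1* at chr4:120442151-120442169. All of these lie within miR genes (Mir140, Mirlet7d, Mir106b, Mir15b, Mir181a-1 and Mir30c-1), on the 3p side of the hairpin. In this set miR-130b* is the only star from the 5p side.

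A second set shows stars that share a seed but not their detection. Among the stars with a sequence, 7 pairs had the same seed, and the pairs with a detected member were these.
miR-30c-2*: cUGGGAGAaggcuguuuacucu
miR-30a*: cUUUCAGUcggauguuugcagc
miR-30e*: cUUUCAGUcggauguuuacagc
miR-17*: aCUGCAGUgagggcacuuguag
miR-20b*: aCUGCAGUgugagcacuucuag
miR-24-1*: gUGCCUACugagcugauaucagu
miR-24-2*: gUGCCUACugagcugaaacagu
miR-30a* and miR-30e* differ at 1 position, yet miR-30e* was detected on 14 arrays and miR-30a* on 0. miR-17* was detected on all 16 arrays and miR-20b*, which differs from it at 3 positions, on 0. miR-24-2* was detected on 3 arrays and miR-24-1* on 0. miR-30c-1* was detected on 8 arrays and miR-30c-2*, which has the same seed and differs at 3 positions, on 2. How far probes of such close sequences also bind the other strand was not tested.

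The stars were a faintly detected class. A miR counted as detected on an array when at least 1 of its probes had a share of 0.5 or more of its spots called well above background by the scanner software. Of the 97 stars, 57 (58.8%) were detected on 0 arrays, 10 on 1 or 2 arrays, 27 on 3 to 15 and 3 (miR-140*, miR-17* and miR-135a*) on all 16. Of their 86 arms, 23 (26.7%) were detected on 0 arrays and 39 (45.3%) on all 16. Of the 470 other mouse miRs, 235 were detected on 0 arrays and 102 on all 16.

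Detection of a star went with that of its arm, without being fixed by it. Among the 39 stars whose arm was on all 16 arrays, 23 were detected on at least 1 array and 16 on none. Among the 23 whose arm was on 0 arrays, 5 were detected on at least 1, and miR-330* was the only one of these detected on 3 or more arrays by the same probe. miR-135a* is the reverse of the usual case: it was well above background on all 16 arrays, while its arm was so on 1. By hairpin group, 6 of the 8 stars of the miR-17 clusters, which carry related miRs that promote proliferation, 4 of the 5 miR-30 stars and 4 of the 7 stars of blood lineage hairpins (miR-10a, miR-21, miR-150, miR-181a and others) were detected, against 2 of the 7 let-7 stars and 1 of the 4 stars of the miR-23, miR-27 and miR-24 hairpins.

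The sequences of the detected stars came mostly from the 3p side of the hairpin. Of the 24 stars with a sequence that passed the filter below, 20 were on the 3p side and 4 on the 5p side, while the 46 stars with a sequence and detected on 0 arrays were 23 of each. Among all 80 stars with a sequence, 13 began with U, compared with 41 of the 68 arms with one. The median GC content was 50% for these stars and 42.9% for these arms. These shares are descriptions, and the number of probes and their affinity differ among miRs.

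The number of stars detected differed among the populations and also among the slides. LT-HSC had 5 stars detected on its single array. ST-HSC arrays 1 to 3 had 13, 25 and 20, and MPP arrays had 20, 28 and 24. CMP arrays had 14, 13 and 14, GMP arrays 21, 23 and 16, and MEP arrays 12, 15 and 16. The means were therefore 19.3 ± 6.03 (SD, n = 3) in ST-HSC, 24 ± 4 in MPP, 13.7 ± 0.577 in CMP, 20 ± 3.61 in GMP and 14.3 ± 2.08 in MEP. The CMP counts lay within the ranges of ST-HSC and MEP, the GMP range overlapped those of ST-HSC, MPP and MEP, and the MPP range overlapped those of ST-HSC and GMP and neither CMP nor MEP. The 6 arrays of slide 1 had 12 to 23 stars, the 5 of slide 2 had 5 to 16 and the 5 of slide 3 had 20 to 28. Negative control spots reached a 95th percentile of 9.94 to 44.3 signal units on the first of these slides, of 1.53 to 2.21 on the second and of 1.99 to 3.35 on the third. The third slide held only ST-HSC and MPP, so that slide and population cannot be told apart for its arrays, and ST-HSC 1, which lay on slide 2, had the lowest count of the ST-HSC arrays.

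**Figure D1:**
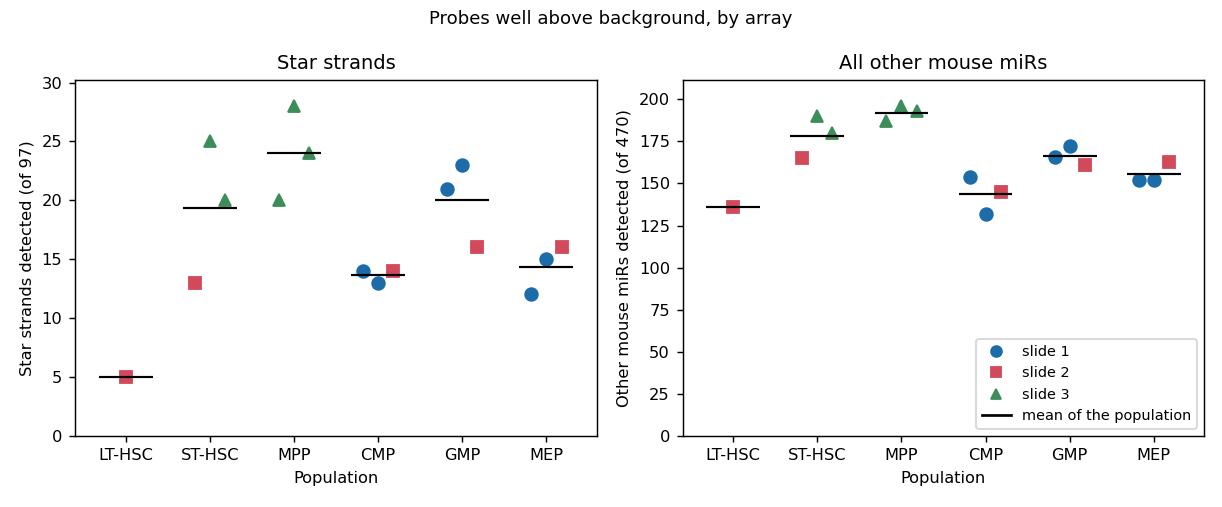
Number of star strands (left, of 97) and of all other mouse miRs (right, of 470) well above background on each array, by population, with the symbol for the slide and a line at the population mean. LT-HSC had 5 stars on its array, and the highest counts, up to 28, were on slide 3 arrays of ST-HSC and MPP.

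The labels were checked with miRs of known lineage. miR-223, a granulocyte and monocyte miR, was highest in GMP at a mean log2 level of 14.0 and lowest in MEP at 9.61. The erythroid miRs miR-144, miR-451 and miR-486 were highest in MEP, at means of 9.25, 12.1 and 7.74. They were next highest on the LT-HSC array, where miR-451 was at 11.1, miR-144 at 5.29 and miR-486 at 6.34, so this array carried erythroid miRs above the level in ST-HSC and MPP, and their part in the LT-HSC values below was not tested. miR-143, miR-145 and miR-122, of stromal cells and liver, were detected on 0 arrays, miR-124 of neurons on 2 CMP arrays, and the muscle miRs miR-1 and miR-133a on 1 MEP array each. Of the stem-side miRs, miR-125b-5p and miR-99a were higher in each HSC subset than in the myeloid progenitors and lowest in MEP. miR-126-3p was highest in MPP at a mean of 8.56, but was lower in ST-HSC at 7.20 than in CMP at 7.37. miR-150, a miR of mature lymphocytes, was detected on all HSC arrays and highest in MPP at 7.20. Whether lymphocytes were present was not tested. In sorted bulk samples, fewer cells of a type and less of a miR per cell cannot be told apart.

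Tests used the 237 miRs, 29 stars among them, with a probe that rose well above background on 3 or more arrays. Levels are log2 of the quantile-normalized, background-subtracted signal of the brightest passing probe, with a floor of 1.62 taken from the negative controls. Levels of different probes are not set against each other, so each star is compared only with itself across arrays, and with its arm only in the change between populations. A star enters through the arrays on which it was detected, so the counts of stars called describe the 29 and do not speak for the 97. The p-values are from limma's moderated test with Benjamini-Hochberg adjustment over all 237 miRs, a miR being called at an adjusted p under 0.05, and they measure the spread between these samples. Where several populations formed a side, each population mean had equal weight. The single LT-HSC array thus counted as much as the 3 arrays of another population.

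**Figure D2:**
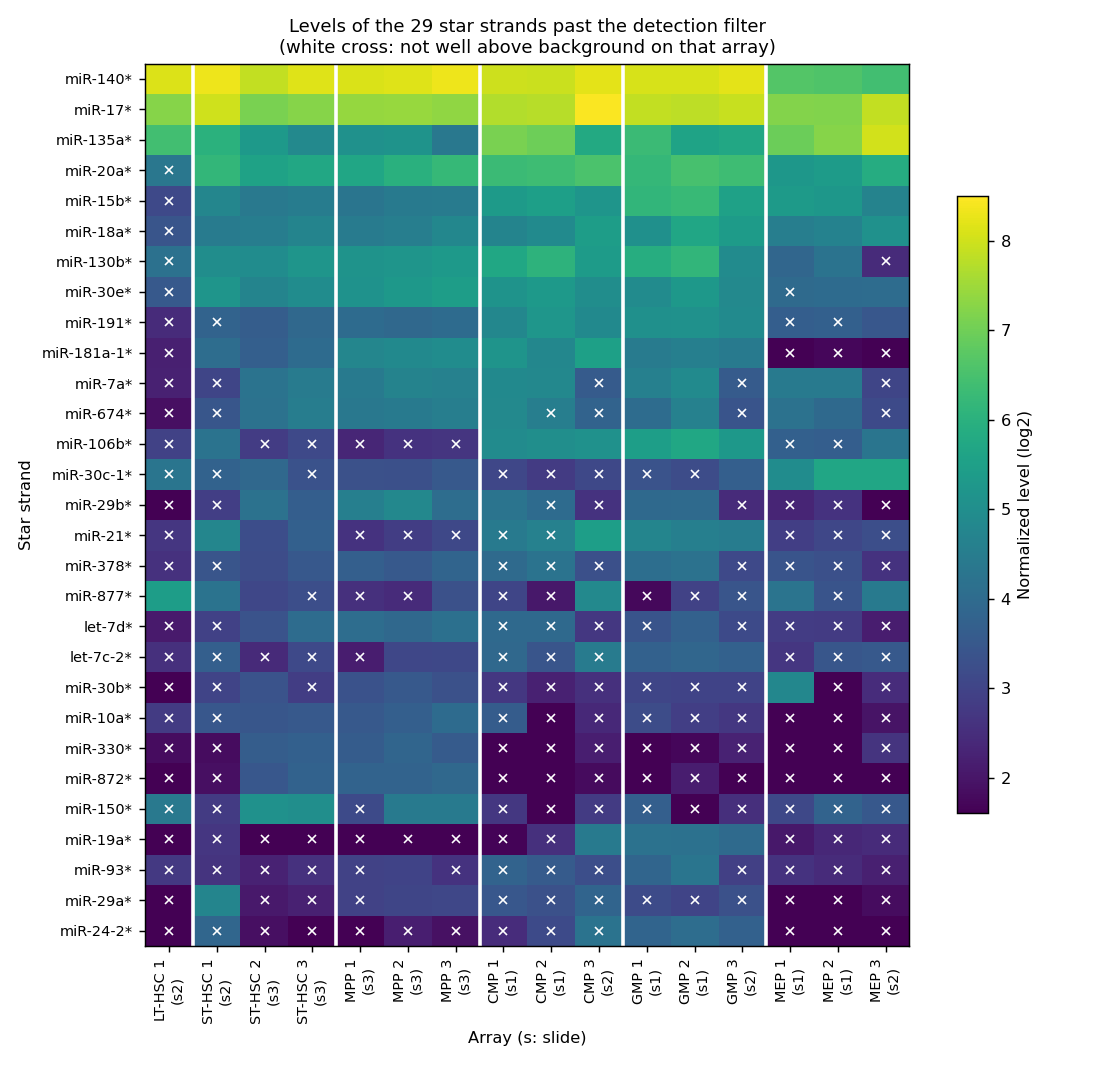
Normalized log2 level of the 29 star strands past the filter (rows, to be read across only) on the 16 arrays (columns, s: slide), with a white cross where the star was not well above background. miR-140* was between 6.41 and 6.66 on the 3 MEP arrays and between 7.86 and 8.33 on the other arrays, and miR-330* and miR-872* were above background on the 5 arrays of slide 3 alone.

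Over the 6 populations, 23 of the 29 stars were called by the moderated F test, where 82.7% of all 237 miRs were called. A fit with the slide as a block kept 18 of these calls, where it called 89.9% of all miRs. The stars not called were miR-150*, miR-877*, miR-378*, miR-7a*, miR-17* and miR-30b*. miR-17*, from the first hairpin of the miR-17 cluster, was bright on every array: it was at 7.24 in LT-HSC, 7.12 to 8.01 in ST-HSC, 7.35 to 7.44 in MPP, 7.71 to 8.47 in CMP, 7.80 to 7.91 in GMP and 7.20 to 7.86 in MEP. These ranges overlapped for most populations, and the adjusted p of limma's F test was 0.20.

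miR-140* set MEP apart. Its level was 8.14 in LT-HSC, 8.33, 7.86 and 8.17 in ST-HSC, 8.10, 8.17 and 8.33 in MPP, 7.97, 7.95 and 8.22 in CMP, 8.08, 8.08 and 8.22 in GMP, and 6.66, 6.60 and 6.41 in MEP. The 13 arrays outside MEP lay within a range of less than 1 log2 unit, and every MEP array was below all of them. In MEP against the other populations it fell by 1.57 ± 0.15 (SE) on the log2 scale (limma, adjusted p = 7.8e-07). The difference was -1.38 within slide 1 and -1.82 within slide 2.

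Its arm, miR-140, was also low in MEP but moved elsewhere too. miR-140 was at 5.63 in LT-HSC, 6.98, 5.38 and 5.58 in ST-HSC, 6.07, 5.71 and 5.90 in MPP, 6.89, 6.95 and 6.95 in CMP, 7.14, 7.20 and 7.02 in GMP, and 5.38, 5.58 and 5.49 in MEP. The arm was thus low in MEP and on all HSC arrays but ST-HSC 1, which lay on slide 2, and high in CMP and GMP, where the star did not stand above the HSC subsets. GMP exceeded MEP by 1.57 ± 0.18 for the star (limma, adjusted p = 7.9e-06) and by 1.64 ± 0.32 for the arm (adjusted p = 6.7e-04), and the change of star minus arm between GMP and MEP was -0.07 ± 0.31 (adjusted p = 0.84). Between HSC subsets and myeloid progenitors both arms were called in opposite directions, at 0.58 ± 0.12 for miR-140* (adjusted p = 1.8e-03) and -0.68 ± 0.22 for miR-140 (adjusted p = 0.020). The difference of star minus arm was 1.26 ± 0.21 higher in the HSC subsets (adjusted p = 2.7e-04), and no HSC array overlapped a myeloid array in it. With the slide as a block this fell to 0.53 (adjusted p = 0.070), and within slide 2 it was 0.80. The level of miR-140* itself in HSC subsets against myeloid progenitors reversed to -0.46 without normalization between arrays (adjusted p = 0.38).

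let-7d*, from a hairpin of the let-7 family that rises with differentiation in many tissues, varied over the arrays much as its arm did, near background. It was at 2.11 in LT-HSC, 2.93, 3.36 and 4.05 in ST-HSC, 4.07, 3.93 and 4.15 in MPP, 3.97, 3.96 and 2.71 in CMP, 3.38, 3.75 and 3.16 in GMP, and 2.83, 2.79 and 2.15 in MEP. It was well above background on 6 arrays, which were ST-HSC 2 and 3, the 3 MPP arrays and GMP 2, and on none of MEP. The arm let-7d was at 9.48 in LT-HSC, 9.24, 10.93 and 11.21 in ST-HSC, 11.31 on each MPP array, 10.54, 10.48 and 9.24 in CMP, 10.15, 10.27 and 9.48 in GMP, and 10.08, 9.88 and 8.98 in MEP. For both strands the arrays of slide 2 (LT-HSC 1, ST-HSC 1, CMP 3, GMP 3 and MEP 3) were the lowest of their population, where it had another array, and MPP was high. MEP against the other populations was called for let-7d* (limma, adjusted p = 0.040), with no fold since MEP had only values not well above background, and this call was lost in 9 of 16 leave-outs of an array, MEP 3 giving the highest adjusted p at 0.21. The arm let-7d was not called in that comparison (-0.62 ± 0.40, adjusted p = 0.18). The change of star minus arm passed for HSC subsets against myeloid progenitors at -0.50 ± 0.20 (adjusted p = 0.047) and was -0.07 with the slide as a block (adjusted p = 0.83).

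In GMP most called stars were higher. Against the other populations 13 of the 29 stars were called, 12 higher and 1 lower, where 48.1% of the 237 miRs were called, 29.1% higher and 19% lower. The median star difference was 0.49 and that of all tested miRs 0.07. When arrays were instead scaled to the 75th percentile of those probes that passed the background call on every array, here called the percentile scaling, 9 stars were called and 4 of them were higher, and the median of all miRs moved by -0.47. The slide block kept 10 of the 13 calls, where it called 50.6% of all miRs. Among the 12 called higher, miR-19a*, miR-24-2* and miR-93* passed the filter only with the GMP arrays, which favoured their calls.

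miR-106b* was highest in GMP. miR-106b, miR-93 and miR-25 form a cluster related to miR-17, in an intron of the Mcm7 gene. The star was at 5.48, 5.72 and 5.29 in GMP, 4.92, 5.02 and 5.09 in CMP, 3.72, 3.65 and 4.29 in MEP, 2.95 in LT-HSC, 4.24, 2.83 and 3.12 in ST-HSC, and 2.35, 2.61 and 2.66 in MPP. Every GMP array was above every other array, CMP came next, and in MEP and the HSC subsets it was well above background on MEP 3 and ST-HSC 1 alone. It was 1.94 ± 0.25 higher in GMP than in the other populations (limma, adjusted p = 6.9e-05), and within slides 1 and 2 the differences were 1.27 and 1.15. Its arm did not show this: miR-106b ranged from 10.1 to 10.5 in GMP and from 9.66 to 10.9 on the other arrays, and differed by -0.07 ± 0.14 (adjusted p = 0.68). The change of star minus arm was 2.01 ± 0.25 (adjusted p = 3.4e-05) and was 1.61 with the slide as a block.

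miR-15b* was also highest in GMP. It was at 6.15, 6.26 and 5.56 in GMP, 5.36, 5.49 and 5.21 in CMP, 5.37, 5.25 and 4.69 in MEP, 3.12 in LT-HSC, 4.76, 4.38 and 4.50 in ST-HSC, and 4.28, 4.44 and 4.46 in MPP. The GMP arrays were again above all the others, GMP 3 only just. It was 1.49 ± 0.19 higher in GMP than elsewhere (limma, adjusted p = 6.6e-05), while miR-15b, a regulator of the cell cycle and of survival, differed by -0.10 ± 0.16 (adjusted p = 0.61). Without the LT-HSC array the difference of the star was 1.14. The change of star minus arm was 1.59 ± 0.26 (adjusted p = 2.5e-04), or 1.03 with the slide as a block. Against MEP alone miR-15b* was 0.89 ± 0.24 higher in GMP (adjusted p = 5.1e-03), but -0.02 with the percentile scaling.

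miR-191*, miR-19a*, miR-21*, miR-24-2*, miR-18a*, miR-20a*, miR-93* and miR-181a-1* were also called higher in GMP, with and without the slide as a block, although miR-20a* was not called without the LT-HSC array (adjusted p = 0.075). miR-191* was at 5.07, 5.10 and 4.91 in GMP, 4.79, 5.23 and 4.87 in CMP, 3.65, 3.72 and 3.46 in MEP, and 2.46 to 4.01 in the HSC subsets. GMP and CMP overlapped and both were above the rest, and GMP against the other populations was 1.27 ± 0.14 higher (limma, adjusted p = 2.9e-05), or 0.94 higher without the LT-HSC array. miR-19a* was at 4.19, 4.17 and 3.99 in GMP and 1.67, 2.57 and 4.41 in CMP, and at most 2.70 elsewhere, where no array had it above background. CMP 3 was the only array outside GMP with it above background, so it passed the filter through the GMP arrays and its call is a description. miR-24-2*, one of the stars of the miR-24 hairpins, was above background on the 3 GMP arrays alone, at 3.82, 4.06 and 3.75. It passed the filter through these arrays alone, so it had to differ in GMP and its call is a description too. miR-130b*, miR-30e* (higher) and miR-30c-1* (lower) were called without the slide block only. Of the 6 miR-17 cluster stars past the filter, 5 were called higher in GMP, miR-17* being the exception, where 29.1% of all miRs were called higher, and under the percentile scaling 4 of the 9 stars called, of all hairpins, were higher. Outside GMP, miR-19a* and miR-93* were well above background on 1 array each. These 2 passed the filter only with the GMP arrays, so the count for the cluster is a description. The study listed miR-106b* and miR-15b* among its GMP miRs and miR-191*, miR-19a*, miR-148a* and miR-425* among miRs of myeloid cells in general. These lists were chosen on the same arrays and are not independent of the values here. miR-148a* was detected on 1 array (GMP 1) and miR-425* on 2 (both GMP), so neither was tested.

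In MEP most called stars were lower, as were most called miRs of all kinds. Of the 29 stars, 15 were called against the other populations, 2 higher and 13 lower, where 68.4% of all 237 miRs were called, 24.1% higher and 44.3% lower. The median difference was -0.36 for the stars and -0.47 for all tested miRs. The slide block, which called 80.6% of all miRs, kept 14 of these calls, and the exception was miR-872*. Under the percentile scaling 10 stars were called, 3 higher and 7 lower, with the median of all miRs moved by 0.21. Without normalization 5 were called (2 higher and 3 lower), and with the authors' deposited log2 values 11 were called (3 higher and 8 lower). Of the 13 called lower, miR-181a-1*, miR-10a*, miR-21*, miR-24-2*, miR-29a*, miR-29b*, miR-93*, let-7d* and miR-872* were well above background on no MEP array. These stars passed the filter through other populations, which favoured a lower call.

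miR-181a-1* was not well above background in MEP. The miR-181 family is known for its part in lymphoid development. The star was at 1.62, 1.72 and 1.62 in MEP, 4.46, 4.58 and 4.41 in GMP, 5.17, 4.79 and 5.51 in CMP, 4.76, 4.87 and 4.96 in MPP, 4.07, 3.68 and 4.02 in ST-HSC, and 2.21 in LT-HSC. All arrays outside MEP and LT-HSC had it well above background. By limma, MEP was below the other populations by at least 1.70-fold (adjusted p = 4.0e-08). GMP was at least 1.78-fold higher than MEP (adjusted p = 3.6e-07). miR-181a, which has a copy of its gene at each of several places and so no single hairpin partner here, fell in MEP as well, by 2.33 ± 0.27 (adjusted p = 5.5e-06). It was at 5.79, 6.29 and 6.23 in MEP and at 7.76 or above on all other arrays, LT-HSC included at 8.61. LT-HSC was therefore an array on which miR-181a was high and miR-181a-1* was not above background.

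miR-30c-1* and miR-135a* were the stars higher in MEP. miR-30c-1* was at 4.95, 5.67 and 5.69 in MEP, 3.36, 3.20 and 3.68 in GMP, 3.07, 2.80 and 3.09 in CMP, 3.32, 3.28 and 3.53 in MPP, 3.78, 3.93 and 3.33 in ST-HSC, and 4.28 in LT-HSC. Every MEP array exceeded all others, and the LT-HSC array, which also carried erythroid miRs, had the next level although not well above background. MEP was 1.89 ± 0.20 higher than the other populations (limma, adjusted p = 2.3e-06), with 2.20 within slide 1 and 1.98 within slide 2. miR-30c, made from this hairpin and from miR-30c-2, went the other way, at -0.66 ± 0.15 (adjusted p = 1.5e-03). miR-30c was at 8.71, 8.40 and 8.61 in MEP and at 8.61, 8.76 and 8.95 in GMP. miR-30c-2*, with the same seed, was detected on 2 arrays, and both were MEP arrays.

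miR-30e* lies close to miR-30c-1* on chromosome 4, at chr4:120445223-120445240 (mm9), and did not move with it. In MEP it was at 3.99, 4.01 and 4.03, below the 4.70 to 5.44 of the ST-HSC, MPP, CMP and GMP arrays and above LT-HSC at 3.54. It fell by 0.78 ± 0.16 in MEP against the other populations (limma, adjusted p = 6.8e-04), while its arm differed by 0.01 ± 0.20 (adjusted p = 0.97). The change of star minus arm was -0.79 ± 0.20 (adjusted p = 7.2e-03), or -0.64 with the slide as a block.

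miR-135a* was at 6.96, 7.26 and 8.04 in MEP, 7.12, 6.98 and 5.79 in CMP, 6.29, 5.60 and 5.75 in GMP, 5.10, 5.15 and 4.35 in MPP, 6.01, 5.33 and 4.84 in ST-HSC, and 6.41 in LT-HSC. MEP was above GMP on every array but overlapped CMP. It was 1.59 ± 0.34 higher in MEP than in the other populations (limma, adjusted p = 9.4e-04), where the differences were 0.62 within slide 1 and 2.05 within slide 2. The study listed miR-135a*, miR-15b* and miR-30c-1* among its MEP miRs, again from these arrays. Of these, miR-15b* was not called here in MEP against the other populations, and every MEP array was below every GMP array for it.

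miR-130b*, miR-10a*, miR-29a*, miR-29b* and miR-93* were among the stars lower in MEP. All of them but miR-130b* passed the filter through other populations alone, which favoured a lower call. miR-130b* was at 3.88, 4.24 and 2.44 in MEP, 5.89, 6.13 and 4.92 in GMP, 5.72, 6.05 and 5.38 in CMP, 4.95 to 5.33 in ST-HSC and MPP, and 4.17 in LT-HSC. MEP and LT-HSC were the low samples and overlapped each other. The star differed by -1.64 ± 0.33 in MEP (limma, adjusted p = 6.7e-04) and the arm miR-130b by -0.77 ± 0.13 (adjusted p = 1.5e-04). Both strands fell, and the change of star minus arm was -0.87 ± 0.33 (adjusted p = 0.044). miR-10a, a Hox cluster miR, fell by 3.85 ± 0.44 in MEP (adjusted p = 5.3e-06), and miR-10a*, which was above background on the 5 arrays of slide 3 alone, was called lower as well, a call that its detection on those arrays alone favoured. miR-93* and its arm were the pair called in opposite directions in MEP, miR-93* lower (adjusted p = 0.031, on MEP values not well above background) and miR-93 higher by 0.55 ± 0.21 (adjusted p = 0.033). The filter favoured the call of miR-93*, so the opposite directions are a description. miR-18a rose by 1.19 ± 0.13 in MEP (adjusted p = 4.9e-06) and miR-7a by 2.28 ± 0.28 (adjusted p = 1.1e-05), and neither miR-18a* nor miR-7a* was called there. Their changes of star minus arm were -1.01 ± 0.22 (adjusted p = 3.1e-03) and -2.21 ± 0.47 (adjusted p = 2.6e-03).

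GMP against MEP is the comparison in which both sides lay on the same slides, replicates 1 and 2 on slide 1 and the others on slide 2. Of the 29 stars, 18 were called, 16 higher in GMP and 2 higher in MEP (miR-30c-1* and miR-135a*), where 62.9% of all 237 miRs were called, 40.9% higher and 21.9% lower. miR-19a*, miR-24-2* and miR-93*, among the 16, passed the filter only with the GMP arrays, which favoured their calls. miR-10a* and miR-29a*, also among the 16, were well above background on no GMP array and no MEP array. Their calls compare readings near background on both sides and are a description. The median was 0.84 for the stars and 0.44 for all tested miRs. All 18 calls held with the slide as a block, where 81% of all miRs were called, and for 16 of the 18 stars no GMP array overlapped a MEP array. Under the percentile scaling 8 stars were called, 4 in each direction, with the median of all miRs moved by -0.41. Of the 23 arms of the tested stars, 7 were called here, 6 higher and 1 lower.

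Among the 23 pairs of star and arm, GMP against MEP called the star and not the arm in 10, both in the same direction in 4, the arm alone in 3 and neither in 6, and in 0 pairs were both called in opposite directions. miR-21* shows the first kind. It was at 4.73, 4.57 and 4.50 in GMP and 2.88, 3.07 and 3.26 in MEP, where it was not well above background. GMP was at least 1.93-fold higher (limma, adjusted p = 2.2e-03), while miR-21, an abundant miR of many growing cells, differed by 0.21 ± 0.29 (adjusted p = 0.54). miR-130b* and miR-130b show the second kind, at 2.13 ± 0.41 (adjusted p = 6.1e-04) and 1.14 ± 0.16 (adjusted p = 4.6e-05). A call of one strand and not of the other does not show that the strands differ, and the test of the difference is that of star minus arm on the same array.

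By that test 3 of the 23 star pairs differed between GMP and MEP, where 20.5% of all 39 pairs with both arms measured were called. The 39 pairs were the 23 star pairs, 14 hairpins whose arms are named -5p and -3p, and 2 pairs of stars outside the 97. The 3 were miR-106b*, at 1.51 ± 0.31 higher relative to its arm in GMP (limma, adjusted p = 2.3e-03), miR-21* (adjusted p = 1.4e-03) and miR-19a* (adjusted p = 3.6e-03), all in the direction in which 15.4% of the 39 pairs were called. For miR-21* and miR-19a* no size is given, because neither star rose above background in MEP, and miR-19a* passed the filter through the GMP arrays, so its call is a description. For all 3 the GMP and MEP arrays did not overlap in star minus arm, and each held with the slide as a block, under which 17 star pairs and 64.1% of the 39 pairs were called. With replicate number as a block 10 star pairs were called in place of 3. None of the star pairs was called under either percentile scaling or without normalization.

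**Figure D3:**
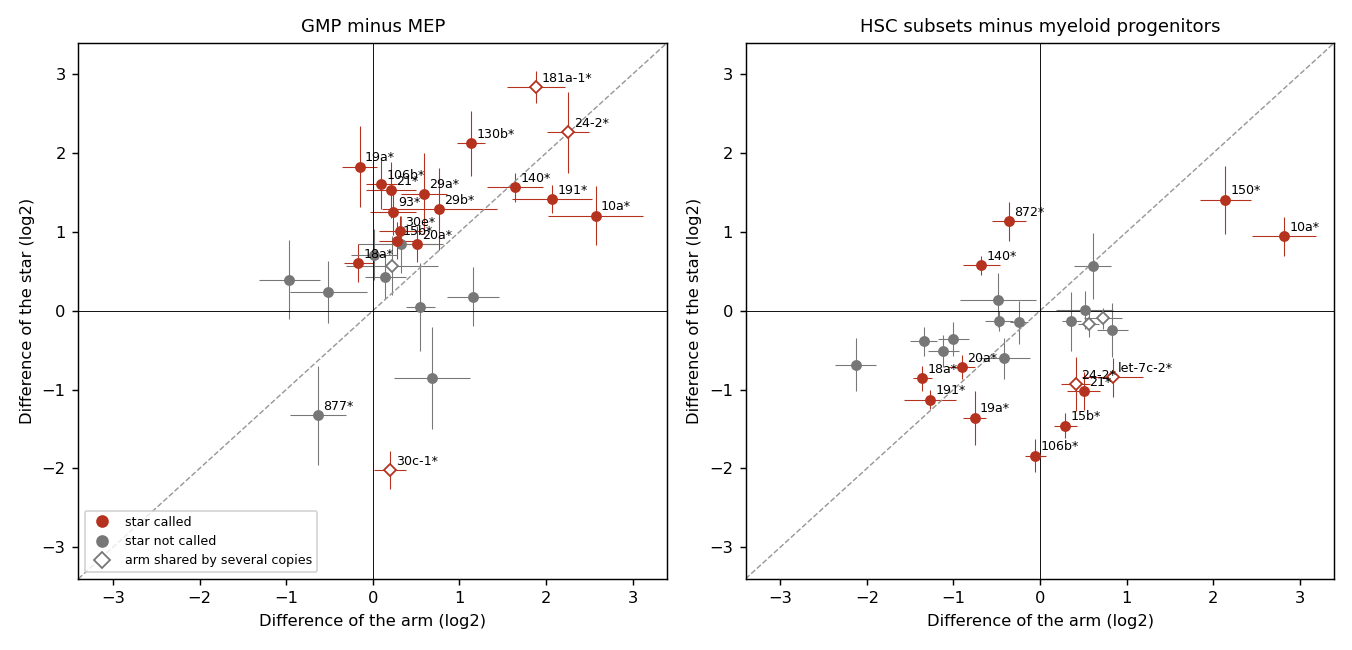
Difference of each star strand (vertical axis, log2) against that of its arm (horizontal axis, log2) for GMP minus MEP (left) and HSC subsets minus myeloid progenitors (right), with bars of 1 SE, a dashed line of equal change and diamonds where several gene copies share the arm; where a star was not well above background on a side, its plotted difference rests on such readings. Between GMP and MEP miR-140* lies close to the dashed line at 1.57 for the star and 1.64 for the arm, while miR-106b* lies at 1.61 with its arm at 0.10.

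Over the 6 populations, star minus arm differed by the moderated F test in 18 of the 23 star pairs, where 76.9% of the 39 pairs were called, and in 10 of the 14 pairs named -5p and -3p. The slide block, which called 82.1% of the 39 pairs, kept 17 of the 18. Both strands were well above background on all 16 arrays in only 2 of the called pairs, miR-140 and miR-17. The lowest adjusted p-values were those of miR-106b* and miR-21*, both 3.3e-05, miR-15b* at 1.8e-04, miR-7a* at 5.2e-04 and miR-30e* at 9.1e-04. miR-17* was called at 2.7e-03 and miR-140* at 3.1e-03. The other stars called in this way were miR-872*, miR-18a*, miR-150*, miR-29a*, miR-10a*, miR-19a*, miR-93*, miR-378*, miR-674*, miR-20a* and miR-29b*.

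Between the HSC subsets and the myeloid progenitors the stars were divided. Of the 29 stars, 15 were called, 5 higher in the HSC subsets and 10 lower, where 48.1% of all 237 miRs were called, 25.3% higher and 22.8% lower. Among the 10 called lower, miR-19a*, miR-24-2* and let-7c-2* passed the filter only with the GMP arrays, which favoured their calls. The median was -0.36 for the stars and 0.06 for all tested miRs, and for none of the 15 stars were the 7 HSC arrays clear of the 9 myeloid arrays. Under the percentile scaling 12 stars were called, 8 higher and 4 lower, with the median of all miRs moved by 0.35, and without normalization 13 were called, 2 higher and 11 lower. Only slide 2 held both sides. Under the slide block 9 stars were called, 2 higher and 7 lower, where 44.3% of all miRs were called, 27% higher and 17.3% lower, and 6 of the 15 kept their call and sign.

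These 6 were miR-106b*, miR-15b*, miR-191*, miR-18a* and miR-20a*, lower in the HSC subsets, and miR-140*. miR-106b* was lowest at 2.35, had its median at 2.83 and was highest at 4.24 on the 7 HSC arrays, against 3.65, 5.02 and 5.72 on the 9 myeloid arrays. The overlap came from ST-HSC 1 with the MEP arrays 1 and 2, and the difference was -1.84 ± 0.21 (limma, adjusted p = 1.2e-05), or -1.22 with the slide as a block and -1.29 within slide 2. miR-15b* was at 3.12, 4.44 and 4.76 in the HSC subsets and 4.69, 5.37 and 6.26 in the myeloid progenitors, a difference of -1.46 ± 0.16 (adjusted p = 8.6e-06), or -0.96 with the block. Its arm differed by 0.29 ± 0.14 (adjusted p = 0.092), and the change of star minus arm was -1.75 ± 0.22 (adjusted p = 2.1e-05), or -0.83 with the block, with no overlap of the sides. miR-20a* was called lower at -0.71 ± 0.15 (adjusted p = 2.0e-03), but without the LT-HSC array the adjusted p was 0.28. Without that array miR-15b* differed by -1.01 and miR-191* by -0.65, and both kept their call.

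miR-330*, miR-872*, miR-10a* and miR-150* were called higher in the HSC subsets without the block and not with it. By the probes tested, each was well above background on slide 3 arrays of ST-HSC and MPP alone. These were 4 arrays for miR-150* and 5 for each of the others. Passing the filter in this way favoured the call, and it is given as a description. miR-872* was at 3.48 to 3.92 and miR-330* at 3.59 to 3.85 on the 5 arrays of slide 3. On slide 2 ST-HSC 1 was at 1.89 for miR-872* and 1.84 for miR-330*, and LT-HSC 1 was at 1.62 and 1.84, all not well above background, as were the myeloid arrays. For miR-330* the slide block turned the sign, to -0.51 (adjusted p = 0.019). All 5 arrays of slide 3 had both stars above background and no other array did. miR-135a* was called lower in the HSC subsets at -1.09 ± 0.28 (adjusted p = 6.3e-03) and had -0.46 with the block (adjusted p = 0.47).

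The change of star minus arm was called in 11 of 23 star pairs for HSC subsets against myeloid progenitors, where 48.7% of the 39 pairs were called (25.6% lower), and 5 of the 11 held with the slide as a block, which called 35.9% of the 39. These were miR-21*, miR-106b*, miR-15b*, miR-29a* and miR-10a*, all lower relative to the arm in the HSC subsets. Neither miR-29a* nor miR-10a* was detected on any myeloid array (0 of 9), so these stars had readings near background on that side, and nothing is read from these 2 pairs. miR-21* was at 2.69 in LT-HSC, 4.77, 3.23 and 3.71 in ST-HSC and 2.60, 2.86 and 3.10 in MPP, compared with 4.42, 4.62 and 5.48 in CMP and the values above in GMP and MEP. Its arm was highest on ST-HSC 1 at 12.9 and was between 11.4 and 12.1 on the other HSC arrays, and between 10.9 and 12.2 on the myeloid arrays. For both strands the sides overlapped. The star was well above background on 3 of the 7 HSC arrays and 4 of the 9 myeloid arrays, so its sizes rest partly on readings near background. The star differed by -1.02 ± 0.24 (limma, adjusted p = 3.5e-03; 0.13 with the block), the arm by 0.51 ± 0.19 (adjusted p = 0.045), and star minus arm by -1.53 ± 0.17 (adjusted p = 1.7e-05), or -1.43 with the block. In MEP against the other populations 12 star pairs were called and in GMP 6, where 48.7% and 33.3% of the 39 pairs were called, and 10 and 5 of these held with the slide as a block, under which 59% and 35.9% were called.

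**Figure D4:**
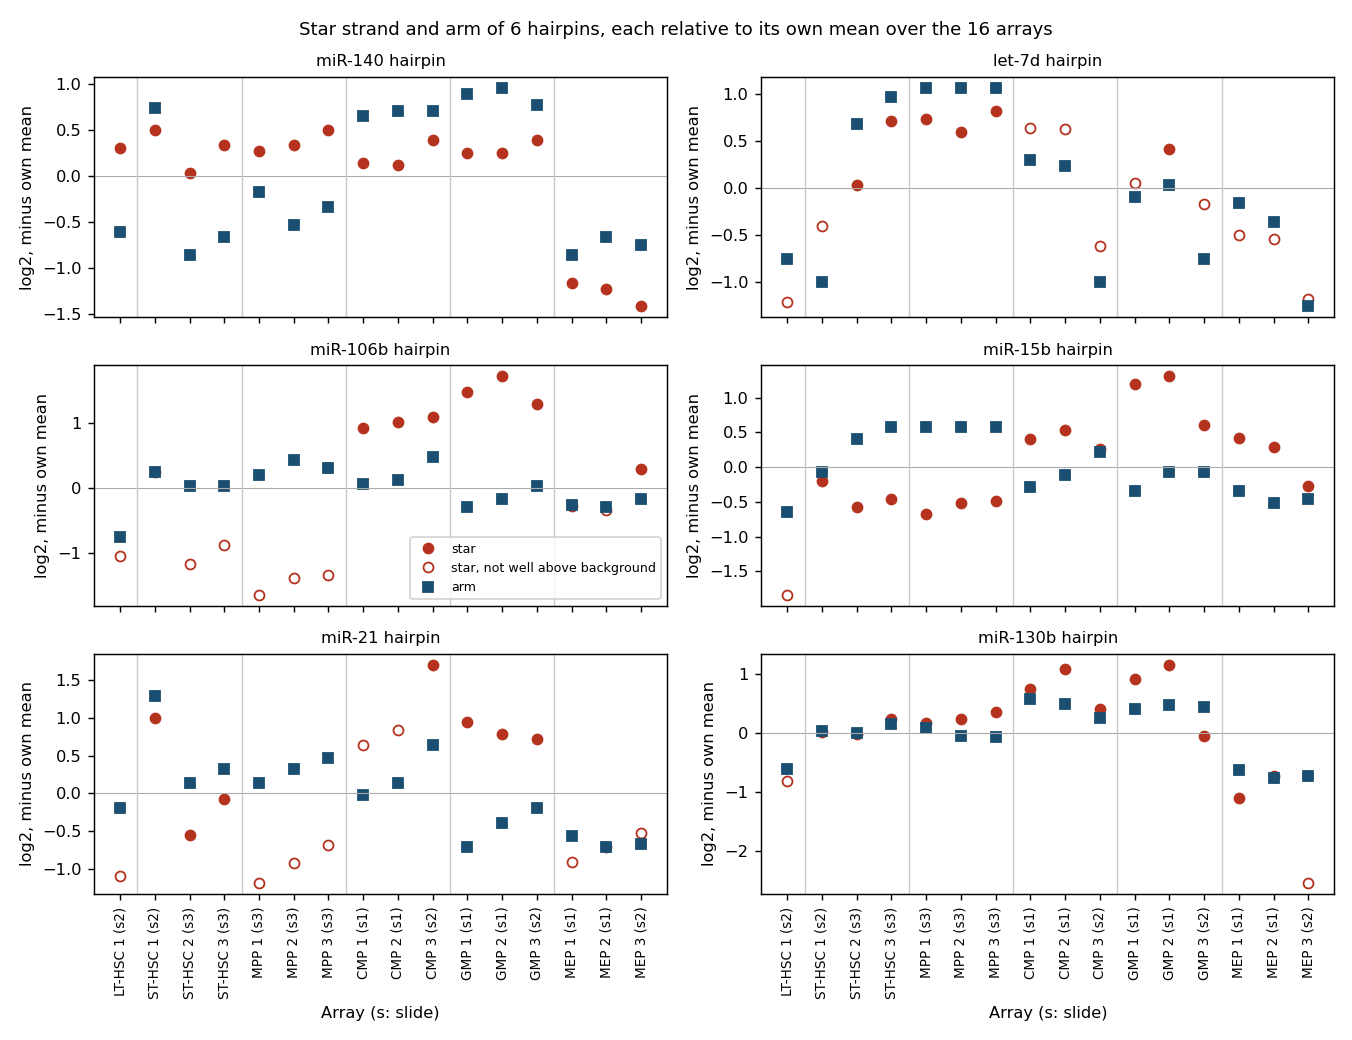
Log2 level of the star strand (red circles, open where not well above background) and of its arm (blue squares) of 6 hairpins on each of the 16 arrays (s: slide), each minus its own mean over the arrays, with grey lines between populations. For miR-130b the strands move together with MEP lowest, for miR-140 both are low in MEP while the arm alone is low in most HSC arrays, and for miR-106b the star is highest in GMP while its arm is not.

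Within the HSC subsets few stars separated the populations. Between ST-HSC and MPP 1 of the 29 stars was called, miR-181a-1*, where 4.64% of all 237 miRs were called, 1.27% higher and 3.38% lower, and 17.7% with the slide as a block. ST-HSC was lower, with a log2 difference of -0.94 ± 0.20 (limma, adjusted p = 0.028), and -1.01 with the slide as a block (adjusted p = 4.2e-03). All ST-HSC arrays were below all MPP arrays, but the call was lost when any of MPP 1, MPP 2, MPP 3, ST-HSC 2 or GMP 1 was left out, with an adjusted p of up to 0.13. miR-181a was not called (-0.17 ± 0.33, adjusted p = 0.78). Of the 23 star pairs 0 were called, where 0% of the 39 pairs were called. With the slide as a block 1 was called, where 2.56% of the 39 pairs were: miR-150* was 2.49 higher relative to its arm in ST-HSC (adjusted p = 0.024), with both strands well above background on 4 arrays of all 16. At an unadjusted p 3 single stars passed in place of 1.

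On the LT-HSC array 11 of the 29 stars were called lower than in ST-HSC and MPP and 0 higher, where 29.1% of all 237 miRs were called, 8.02% higher and 21.1% lower. The slide block kept 10 of the 11, where it called 55.7% of all miRs. This array has no replicate and was taken to vary like the other populations. It lay on slide 2, while 5 of the 6 ST-HSC and MPP arrays lay on slide 3, so the p-values rest largely on a comparison between slides. Under the percentile scaling 8 stars were called, 4 in each direction, with the median of all miRs moved by 0.89. miR-20a* was at 4.33 in LT-HSC and 5.58 to 6.21 in ST-HSC and MPP, a fold of at least 2.74 by which LT-HSC was lower (limma, adjusted p = 1.9e-03). miR-30e* was at 3.54 compared with 4.70 to 5.44, for a fold of at least 1.6 (adjusted p = 7.7e-04). miR-181a-1* was at 2.21 compared with 3.68 to 4.96 (adjusted p = 1.3e-04). On slide 2 alone LT-HSC 1 minus ST-HSC 1 was -1.84 for miR-20a*, -1.67 for miR-30e* and -1.86 for miR-181a-1*, with 1 array on each side. None of the 11 was well above background on that array, and its count of 5 detected stars was the lowest of all arrays.

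Across arrays, stars and arms varied together for some hairpins and not for others. Over the 16 arrays, which share slides and one normalization, Pearson's r of star and arm had a median of 0.40 over the 23 pairs, from -0.42 to 0.87, with 9 above 0.5 and 6 below 0. After each slide's mean was removed the median was 0.58, from -0.19 to 0.89, and without normalization it was 0.82. For miR-140* r was 0.51 and 0.85 with slide means removed, for let-7d* 0.86 and 0.75, for miR-130b* 0.87 and 0.89, for miR-106b* -0.08 and 0.53, and for miR-15b* -0.21 and 0.73. miR-7a*, miR-378* and miR-150* had r of -0.07, -0.17 and -0.19 with slide means removed. Both of their strands were well above background on 11, 7 and 4 arrays. In 7 pairs both strands were so on at least 12 arrays. With slide means removed their median r was 0.85, from 0.30 to 0.89, with 6 above 0.5 and 0 below 0. Among arms made from several gene copies, miR-181a had r of 0.87 with miR-181a-1*, miR-24 had 0.71 with miR-24-2*, let-7c had -0.12 with let-7c-2*, and miR-30c had -0.76 with miR-30c-1*, all with slide means removed.

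No arm of the same name was the miR closest to its star, with or without the slide means removed. With slide means removed, the miR closest to miR-140* among the 236 others tested was miR-23a at r = 0.99, and its arm ranked 42. The closest to let-7d* was miR-324-3p at 0.90 with the arm at rank 47, and the closest to miR-106b* was miR-301b at 0.93 with the arm at rank 87. The best rank reached by an arm of the same name was 18, by miR-20a for miR-20a*. Over the 16 arrays as they were, the arm ranked 89 for miR-140*, 9 for let-7d*, 120 for miR-106b* and 69 for miR-20a*, and the best rank was 4, by miR-191, with miR-10a at 6 and miR-130b at 7. With 16 arrays in 6 populations many miRs share a pattern, and these ranks are descriptions.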

How the data were processed

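Expression of miRs was read from 16 Agilent arrays of a single colour, and scanned spots were quantified with Feature Extraction 9.5.3.1 (slide 1) or 10.2.1.3. The deposited scanner files hold spot intensity with the scanner software's own background subtraction, and the authors also deposited log2 values, whose order followed the median foreground signal and which were used as an alternative. The submitters' processing notes name limma, and the study's methods state quantile normalization and a linear model. The build of the probe positions is mm9.

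Here the background-subtracted intensity was quantile-normalized over the 1712 probes, spots of a probe were averaged, a floor at the 95th percentile of the negative controls (3.07 units) was set, and log2 was taken. Probes well above background in at least 0.5 of their spots on at least 3 arrays were kept, and the brightest passing probe stood for a miR. 0 spots were saturated. limma 3.58.1 in R 4.3.3 (with the package data.table, 1.17.8) fitted a mean per population (10 residual and 3.10 prior degrees of freedom), with two-sided tests. The same fit was made on star minus arm within each array. Where a side had no array well above background, only a bound on the fold is given: the brighter side's mean was set against, for each dim array, the higher of its own reading and the lowest signal there that was well above background. Scripts were tested on simulated data. Depth has no meaning for arrays, and their number limits the precision.

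The members and lists were chosen with earlier results of these data known. Values are given in the text for miR-140* and let-7d*, for up to 3 called stars in each direction and comparison with the largest difference, no overlap and all arrays of the higher side above background, for stars whose pair with the arm was called over the 6 populations, and for stars in the study's printed lists. Some stars whose pair was called, miR-378* and miR-29b* among them, are named without their levels. Other stars and all arms named beside them were chosen after their values were seen. Alternatives were other scalings, background corrections, floors, filters and probe summaries, slide and replicate number as blocks, single slides, deposited values and leaving out each array. Nothing in the labels ties samples of the same number to each other. Over 14 pairs of samples with the same number the correlation of deviations from the population means was -0.26 to 0.48, and 8 of them were over 0.1. All 6 such pairs among CMP, GMP and MEP, which lie on slide 1, were over 0.1 (0.23 to 0.48), as were the 6 pairs of different numbers there (0.30 to 0.45), so number and slide cannot be told apart for them.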

Additional observations from a re-analysis of the deposited data

Results flagged for a closer look

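In each group of 7 HSC arrays and of 9 myeloid arrays, the highest and the lowest level of the 29 stars were set against the nearest other array. Of 60 such groups (stars and the arrays of each kind, with the counts of detected stars), 14 (23.3%) had an array whose gap passed Dixon's 95% critical value. That value assumes arrays of a single population, while each group here pooled several populations and some readings lay at the floor. The share is therefore a description and is not set against a rate expected by chance. In 8 of them the array was LT-HSC 1, as the lowest, and in 11 the value that stood apart was not well above background.

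LT-HSC 1 was the lowest of the 7 HSC arrays for miR-130b* at 4.17 (next array 4.95), miR-15b* at 3.12 (4.28), miR-18a* at 3.43 (4.46), miR-191* at 2.46 (3.64), miR-20a* at 4.33 (5.58), miR-30b* at 1.62 (2.84), miR-30e* at 3.54 (4.70) and miR-674* at 1.88 (3.45). This array carried the erythroid miR-451 at 11.1 and had 5 stars detected, and the part of either in these levels was not tested. ST-HSC 1, on slide 2 with LT-HSC 1, was the highest of the HSC arrays for miR-106b* at 4.24 (next 3.12), miR-17* at 8.01 (7.44), miR-19a* at 2.70 (1.62) and miR-24-2* at 3.87 (2.19), the last pair not well above background. Among the myeloid arrays, MEP 1 was at 4.79 for miR-30b* (next 3.04), well above background, and GMP 2 at 2.15 for miR-872* (1.80), not well above background.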

How the results depend on the processing

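Of 33 values of named stars recomputed under the alternatives, 13 kept direction and side of the threshold throughout; of 970 recomputed values 894 did so, 74 lost their call in the same direction and 2 reversed: miR-15b*, GMP against MEP, was -0.0195 with scaling to the 75th percentile of probes well above background on all arrays, and miR-140*, HSC subsets against myeloid progenitors, was -0.46 without normalization. The causes were not tested unless the alternative itself tests fewer miRs or arrays.

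Stars called, by setting. With that percentile scaling GMP against MEP gave 8 and ST-HSC against MPP 0. Without normalization MEP gave 5, GMP against MEP 10 and ST-HSC against MPP 0. With normexp LT-HSC gave 5 (1 higher, 4 lower) and ST-HSC against MPP 0, as it did with the lower floor and with the authors' deposited values, with which LT-HSC gave 9 (1 higher and 8 lower). Requiring all 16 arrays leaves 3 stars, with 2 called by the F test, 2 for HSC subsets, 0 for GMP, 2 for MEP, 2 for GMP against MEP, and 0 for LT-HSC and for ST-HSC against MPP. Without a filter the F test called 37 and ST-HSC against MPP 3. With the slide as a block HSC subsets gave 9 and ST-HSC against MPP 2, and within slide 2 HSC subsets gave 0. At an unadjusted p ST-HSC against MPP gave 3 and LT-HSC 17.

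Pairs called (of star pairs), by setting. GMP against MEP gave 0 under either percentile scaling, without normalization and with the 16-array filter, 5 with normexp and with the deposited values, 6 with a doubled floor and with a filter of at least 1 array, 20 without a filter, 17 with the slide as a block and 10 at an unadjusted p and within slide 1. GMP against the other populations gave 10 without normalization, 13 with normexp, 2 with the 16-array filter, 11 with the filter of at least 1 array, 14 without a filter, 12 with the deposited values and 1 where readings not well above background were left missing. HSC subsets gave 17 with normexp and with the deposited values, 2 with the 16-array filter, 24 without a filter and 2 with missing readings. The F test gave 2, 46 and 2 under these last 3 settings, and MEP 2, 33 and 2.

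The median r of star and arm was 0.823 without normalization, 0.485 within slide 1 and 0.579 with slide means removed. Where all spots of a probe had to be above background, the mean of stars detected was 19.7 in MPP, 11 in CMP and 10.3 in MEP. Where any spot sufficed, 84 stars were detected on at least 1 array in place of 40, with means of 7 in LT-HSC, 33 in MPP, 30.7 in CMP, 34 in GMP and 22.7 in MEP.

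Leaving out 1 array at a time gave 20 to 24 stars by the F test, 14 to 18 for HSC subsets, 8 (without GMP 2) to 18 for GMP, 8 (without MEP 3) to 16 for MEP, where leaving out MEP 2 gave 9, 13 to 21 for GMP against MEP, 0 to 1 for ST-HSC against MPP and 10 to 14 for LT-HSC. For pairs it gave 15 to 18 by the F test, 8 to 15 for HSC subsets, 4 to 8 for GMP, 9 to 13 for MEP and 3 to 8 for GMP against MEP (6 without GMP 3 and 8 without ST-HSC 1), and a median r of 0.332 to 0.450. GMP against MEP within slide 2 (1 array against 1) and HSC subsets within slide 1 give no test. The numbers in the titles were not taken to pair the samples, since same-number pairs on slide 1 correlated as pairs of different numbers there did. With the replicate block, pairs called for GMP against MEP were 10 in place of 3, and every other count of stars or pairs stayed within 1.5 times.

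The limits are those of faint signal. Of the 29 stars tested 3 were well above background on all 16 arrays, so most differences hold readings near background on a side, and quantile normalization sets such readings by rank. Slide 3 holds only ST-HSC and MPP, and LT-HSC has 1 array.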

Other observations

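let-7c-2* passed the filter on few arrays and has an uncertain origin. Its level was 3.73, 3.88 and 3.75 in GMP, where it was well above background on each array, and it was so otherwise on MPP 2 and 3 alone, at 3.06 and 3.09. The array's annotation places it on chromosome 13, where RefSeq has let-7a-1, while RefSeq places let-7c-2 on chromosome 15. In RefSeq the 3p strands of let-7c-2 and let-7a-1 are identical, and the sequence is given because this probe cannot tell them apart.
let-7c-2*: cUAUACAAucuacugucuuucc

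The hairpins of miR-17, miR-18a, miR-20a, miR-93 and miR-106b have related arms and unlike stars. Their 5 arms have 2 seeds, 4 of the 5 being AAAGUGC, and their 5 stars have 5 seeds. miR-17*, miR-18a* and miR-20a* were above background on 15 or 16 arrays, miR-106b* on 8 and miR-93* on 3.

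miR-877*, from a hairpin in an intron, was brightest on the LT-HSC array at 5.43. It was at 4.23, 3.07 and 3.26 in ST-HSC, 3.03, 2.04 and 4.84 in CMP, 1.74, 2.95 and 3.41 in GMP, and 4.25, 3.4 and 4.42 in MEP. The populations overlapped, and it was not called over the 6 populations (limma, adjusted p = 0.077).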
